A study of Mus musculus with 18 samples.

Results

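Silica alone was set against no particle in macrophages grown from mouse bone marrow, on the 6 of the series' 18 arrays labelled Silica (3 arrays) and CON (3 arrays). The labels alone chose the arrays. All 12393 genes that the arrays measure under 1 gene symbol were tested, each through 1 probe set, the brightest on average when all 18 arrays are counted. Cells of the Silica group were kept for 24 h with amorphous silica particles of 50 nm, washed, and held in fresh medium without lipopolysaccharide (LPS) for 4 h. The labels give the dose as 25 mg/ml, and whether that unit is right could not be checked here. The CON group had medium with no particles, and its labels give neither the hours in it nor a time in the fresh medium. If CON was timed or washed otherwise than Silica, that and the particle cannot be told apart. All groups came from C57BL/6 mice aged 4 to 6 weeks. Marrow flushed from femurs was grown with medium conditioned by L929 cells, a mouse fibroblast line that secretes the macrophage growth factor M-CSF, and adherent cells were replated before treatment. Replicates are labelled biological, but separate mice are not stated, so a p-value reflects only how much these cultures varied, which may be technical. Further groups used for comparison, of 3 arrays each, were Silica-LPS and LPS, in which 10 ng/ml LPS (a bacterial cell wall component) was added for the last 4 h, and SPIO, iron oxide particles of 33 nm without LPS.

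Macrophages take particles into phagosomes that fuse with lysosomes, with scavenger receptors such as Marco and Msr1 among the receptors that bind silica. Crystalline silica is known to damage lysosomes and to start the Nlrp3 inflammasome, which releases interleukin-1 beta. Cultured macrophages without a stimulus also make low amounts of type I interferon and of chemokines, and depend on signals through the M-CSF receptor Csf1r to survive and divide.

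Markers of the labelled cell type were present. Of 22 measured macrophage identity genes 21 had a mean of 7 or more in CON, and Csf1r read 13.96 ± 0.02 in Silica and 13.92 ± 0.01 in CON (log2 signal, SD, n = 3 each). Array medians lay between 6.35 and 6.43 in Silica and between 6.35 and 6.39 in CON. Across probe sets, arrays of 1 group correlated at 0.9974 to 0.9986 and arrays of different groups at 0.9961 to 0.9979. As a sign of RNA quality, the Gapdh control probe set at the 3′ end exceeded the one at the 5′ end (log2) by 0.556 ± 0.021 in Silica and 0.693 ± 0.039 in CON. For Actb the excess was 0.62 ± 0.018 in Silica and 0.588 ± 0.017 in CON, and the part of either difference in the results was not tested.

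Many genes differed by a little between Silica and CON. By limma with Benjamini-Hochberg adjustment over all genes, 304 genes were called higher in Silica and 194 lower at an adjusted p below 0.05, which is 4.02% of the genes tested, 2.45% higher and 1.57% lower. Of these 498 genes, 318 differed by under 1.25-fold, 140 by 1.25-fold to 1.5-fold and 40 by more. Kcnk1 and Ppbp alone passed 2-fold. The median standard error of a difference was 0.08 on the log2 scale, with a median 95% interval of ± 0.17. With 1 array left out, and so fewer samples in the fit, 203 to 381 genes were called, fewest without CON 2 (203) and Silica 3 (228), against 306 without CON 1, 318 without CON 3, 381 without Silica 1 and 297 without Silica 2. The balance of higher to lower calls was not stable, at 254 to 263 after cyclic loess and at 164 to 217 without Silica 1. The 3 arrays of each group did not overlap for 3080 genes, 24.9% of those tested. A firmer set of 162 genes (1.31%) was called in the fit of all arrays and in each of the 6 fits that left out 1 array, with no overlap between the groups: 103 were higher (0.831%) and 59 lower (0.476%). These 162 are termed firm calls, and the genes described with array values are firm unless stated. For a firm call the lack of overlap was part of the choice, so it adds no further support where it is described. The share of genes called was 0.34% of 2370 genes with a mean up to 4, 6.34% of 3014 genes between 8 and 10, 9.38% of 1279 genes between 10 and 12, and 5.26% of the 266 brightest genes. Gene list counts for this comparison stand beside 2.45% higher and 1.57% lower, and were not set against genes of like brightness.

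**Figure D1:**
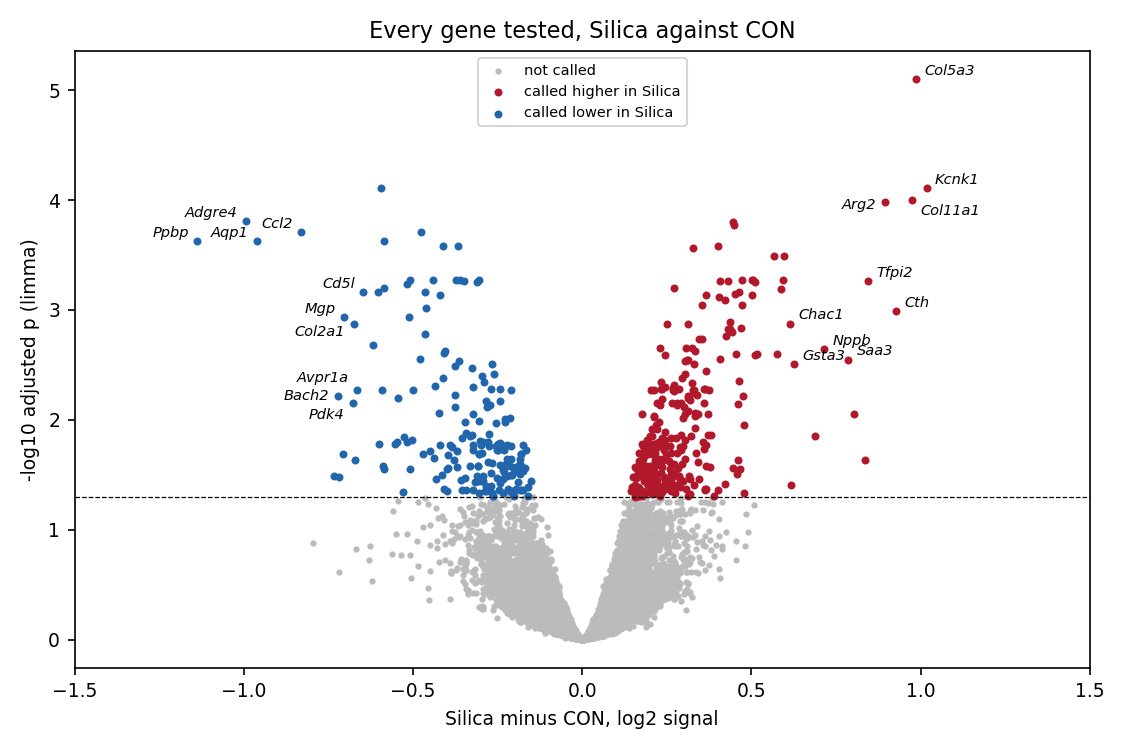
Each point is 1 of the 12393 genes, with the Silica minus CON difference in log2 signal on the x axis and minus log10 of the adjusted p from limma on the y axis. The dashed line marks an adjusted p of 0.05, and the 10 largest rises and 10 largest falls among the firm calls are named. Most called genes lie within 0.5 of 0, Kcnk1 at 1.02 is farthest to the right and Ppbp at -1.14 farthest to the left.

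The largest rise was that of Kcnk1, a potassium leak channel. Kcnk1 read 5.68, 5.61 and 5.58 in Silica, against 4.47, 4.50 and 4.85 in CON. The lowest Silica array thus stood above the highest CON array, and the difference was 1.02 ± 0.094 (standard error of the model, as in all differences given this way), a 2.02-fold rise with an adjusted p of 7.85e-05. Of the 34 measured ion channel genes it was the 1 called higher, and 4 were called lower. Aqp1, a water channel, read 5.61, 5.65 and 5.65 in Silica, against 6.83, 6.38 and 6.58 in CON. Its Silica arrays lay close together, CON 1 was the highest of all, and the fall was -0.96 ± 0.11 (adjusted p = 0.000235). Kcnn4, a calcium-activated potassium channel, fell by 0.36 (adjusted p = 0.00294).

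Some of the largest rises were of fibrillar collagen genes. Col5a3, a chain of type V collagen, read 7.70, 7.71 and 7.61 in Silica, against 6.76, 6.54 and 6.76 in CON. Col11a1, a chain of type XI collagen, read 7.513, 7.353 and 7.238 in Silica, against 6.434, 6.398 and 6.348 in CON. In both genes all Silica arrays stood above all CON arrays by more than the range within either group. Col5a3 rose by 0.99 ± 0.072 (adjusted p = 7.9e-06), the smallest adjusted p of the comparison, and Col11a1 by 0.97 ± 0.095 (adjusted p = 0.000101). Periostin, encoded by Postn, read 11.92, 11.88 and 11.98 in Silica, against 11.47, 11.44 and 11.53 in CON, with narrow groups that did not overlap and a rise of 0.45 ± 0.048. Col3a1 rose by 0.36 ± 0.050, Thbs2, which encodes thrombospondin 2, by 0.40 ± 0.047, Col5a1 by 0.31 ± 0.046 and Col5a2 by 0.23 ± 0.041. Adam12, a metalloprotease that binds integrins, rose by 0.59 ± 0.079, and Itgb1, the common chain of many matrix-binding integrins, by 0.36 ± 0.064. In the opposite direction, Mgp, the matrix Gla protein that holds back calcification, read 8.14, 8.24 and 8.15 in Silica, against 8.94, 8.89 and 8.81 in CON, a fall with no overlap of -0.70 ± 0.10. Col2a1, the cartilage collagen, fell by 0.68 (adjusted p = 0.00133).

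Over the whole list, 9 of 35 measured collagen and matrix genes were called higher and 1, Mgp, lower, with a median of 0.031 beside -0.001 over all genes tested. Col2a1 is not a member of the list, so its fall is not in this count. Leaving out 1 array gave 8 to 9 higher. Stromal markers were present in these cultures. Of 17 measured fibroblast and stroma markers 12 had a mean of 7 or more in CON, with Col1a2 at 13.63 ± 0.044 in Silica and 13.55 ± 0.022 in CON, while Lum averaged 2.98 in Silica and 2.90 in CON. Of these markers 4 were called higher (Postn, Col3a1, Col5a2 and Col1a1) and 2 lower (Mgp and Cxcl12), with a median of 0.046. Their summed linear signal ran from 53825 to 56897 over the Silica arrays and from 50871 to 51758 over the CON arrays, and its part in the collagen rises was not tested. In RNA from a whole culture, a change in the number of stromal cells and a change in the RNA per cell cannot be told apart.

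Of 18 measured genes of arginine and polyamine metabolism, 4 were called higher in Silica and 1, Smox, lower. Arg2, the mitochondrial arginase, read 7.18, 7.06 and 7.08 in Silica, against 5.98, 6.33 and 6.33 in CON. CON 1 was the lowest array, the groups did not overlap, and the rise was 0.89 ± 0.089 (adjusted p = 0.000105). Arg1, the cytosolic arginase and a marker of alternative activation, read 6.996, 7.143 and 6.819 in Silica, against 5.81, 6.28 and 6.37 in CON. Its groups did not overlap either, but the rise of 0.84 ± 0.19 (adjusted p = 0.0234) is no firm call: the adjusted p was 0.0944 without CON 1, 0.058 without CON 2, 0.0599 without Silica 1 and 0.0848 without Silica 2. Slc7a2, which imports arginine, rose by 0.38 ± 0.078 and lost its call without CON 2 (adjusted p = 0.0596). Sat1, which acetylates polyamines, rose by 0.21 ± 0.038. The median of the list was 0.031, and 2 to 4 genes were called higher when 1 array was left out (2 without CON 2).

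Cth, the enzyme that makes cysteine from cystathionine, read 5.34, 5.31 and 5.20 in Silica, against 4.34, 4.37 and 4.36 in CON. All 3 Silica arrays stood well above the CON arrays, which hardly differed among themselves, and the rise was 0.93 ± 0.13 (adjusted p = 0.00102). Chac1, which breaks down glutathione and is a target of the stress transcription factor ATF4, read 6.22, 6.17 and 6.34 in Silica, against 5.71, 5.53 and 5.65 in CON, again without overlap, a rise of 0.61 ± 0.091. Ddit3, another ATF4 target, read 7.85 ± 0.10 in Silica and 7.74 ± 0.11 in CON with an adjusted p of 0.411. Of 30 measured genes of the ATF4 and amino acid stress list 3 were called higher (Cth, Chac1 and Vldlr) and 0 lower, with a median of 0.073. Vldlr (adjusted p = 0.0497 in limma) is no firm call. It lost its call in each of the 6 fits that left out 1 array (adjusted p = 0.0716 to 0.158). By unadjusted p below 0.05 in limma 8 genes of the list were higher and 2 lower. Among 24 endoplasmic reticulum chaperones 0 were called, although 20 lay above 0, with a median of 0.086 and 11 higher and 1 lower by unadjusted p below 0.05.

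Gsta3, a glutathione S-transferase, read 7.43, 7.53 and 7.54 in Silica, against 6.75, 6.72 and 7.16 in CON. CON 3 came nearest to the Silica arrays without reaching them, and the rise was 0.62 ± 0.10 (adjusted p = 0.0031). It was the 1 gene called of 35 measured genes of the NRF2 antioxidant response, beside 2.45% called higher over all genes. The median of the list was 0.055. Hmox1, which encodes heme oxygenase 1, read 10.59 ± 0.006 in Silica and 10.55 ± 0.164 in CON (adjusted p = 0.874). Nqo1, a quinone reductase, read 7.45 ± 0.05 in Silica and 7.32 ± 0.22 in CON (adjusted p = 0.441). For metallothioneins and zinc control 0 of 11 genes were called, with 2 higher and 2 lower by unadjusted p below 0.05, and the heat shock gene Hspa1a read 6.35 ± 0.18 in Silica and 5.99 ± 0.01 in CON (adjusted p = 0.113).

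The promoters of Chac1 and Gsta3 are shown because their lists were searched for a short motif. They are the 250 bases before the start of transcription in RefSeq, build GRCm38.p6, written 5′ to 3′ on the gene's strand, chr2:119350992-119351241 on the plus strand for Chac1 and chr1:21240335-21240584 on the plus strand for Gsta3. Capitals mark the match to TGATGNAAN (the CEBP-ATF response element) in Chac1 and to TGAC, 3 unspecified bases and GCA (the core of the antioxidant response element) in Gsta3.
Chac1: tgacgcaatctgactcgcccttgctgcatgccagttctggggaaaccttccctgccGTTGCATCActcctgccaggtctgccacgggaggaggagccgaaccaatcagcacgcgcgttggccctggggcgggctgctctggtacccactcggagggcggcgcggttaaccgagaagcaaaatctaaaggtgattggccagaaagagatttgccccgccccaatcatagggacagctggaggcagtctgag
Gsta3: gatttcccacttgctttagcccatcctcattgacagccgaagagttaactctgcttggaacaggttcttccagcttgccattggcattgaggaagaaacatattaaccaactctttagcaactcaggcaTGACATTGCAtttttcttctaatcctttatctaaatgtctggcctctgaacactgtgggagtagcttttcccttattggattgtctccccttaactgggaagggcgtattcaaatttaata
Both motifs were searched on both strands in 300 bases from 250 before to 50 after the start, in the 9882 measured genes with such a window. TGATGNAAN occurred in 3.11% of those genes, in 2 of 2 called members of the ATF4 list with a window and in 7 of 24 members not called. The 2 were Chac1 and Vldlr, and Vldlr is no firm call. The TGAC to GCA motif occurred in 3.28% of genes, in Gsta3 and in 2 of 29 members of the NRF2 list not called. A match describes letters only.

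Further large rises fell outside these groups. Tfpi2, an inhibitor of plasmin and other serine proteases, read 7.25, 6.78 and 6.95 in Silica, against 6.08, 6.05 and 6.32 in CON. Saa3, an acute phase protein made by macrophages, read 9.40, 10.08 and 9.85 in Silica, against 9.06, 8.77 and 9.12 in CON. Silica 1 was the lowest Silica array for Saa3 and the highest for Tfpi2, and neither gene's groups overlapped. Tfpi2 rose by 0.84 ± 0.11 (adjusted p = 0.000551) and Saa3 by 0.79 ± 0.13 (adjusted p = 0.00283). Nppb, the gene of brain natriuretic peptide, read 5.48, 5.34 and 5.33 in Silica, against 4.67, 4.59 and 4.74 in CON, which did not overlap, and rose by 0.71 ± 0.11. Cav1, the main protein of caveolae, read 10.41, 10.63 and 10.56 in Silica, against 9.80, 9.90 and 10.12 in CON, and Cavin3, a caveola coat gene, rose beside it (0.59 ± 0.076 for Cav1 and 0.45 ± 0.073 for Cavin3). Apcdd1, an inhibitor of Wnt signalling, rose by 0.60, Chchd10, a mitochondrial protein, by 0.58, Srpx2 by 0.57, Slpi, an inhibitor of neutrophil elastase, by 0.52, Tmeff1 by 0.51 and Hopx by 0.51. Tnfaip6, a hyaluronan-binding protein, Igfbp5 and Il13ra1, a chain of the interleukin-13 receptor, each rose by 0.47.

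**Figure D2:**
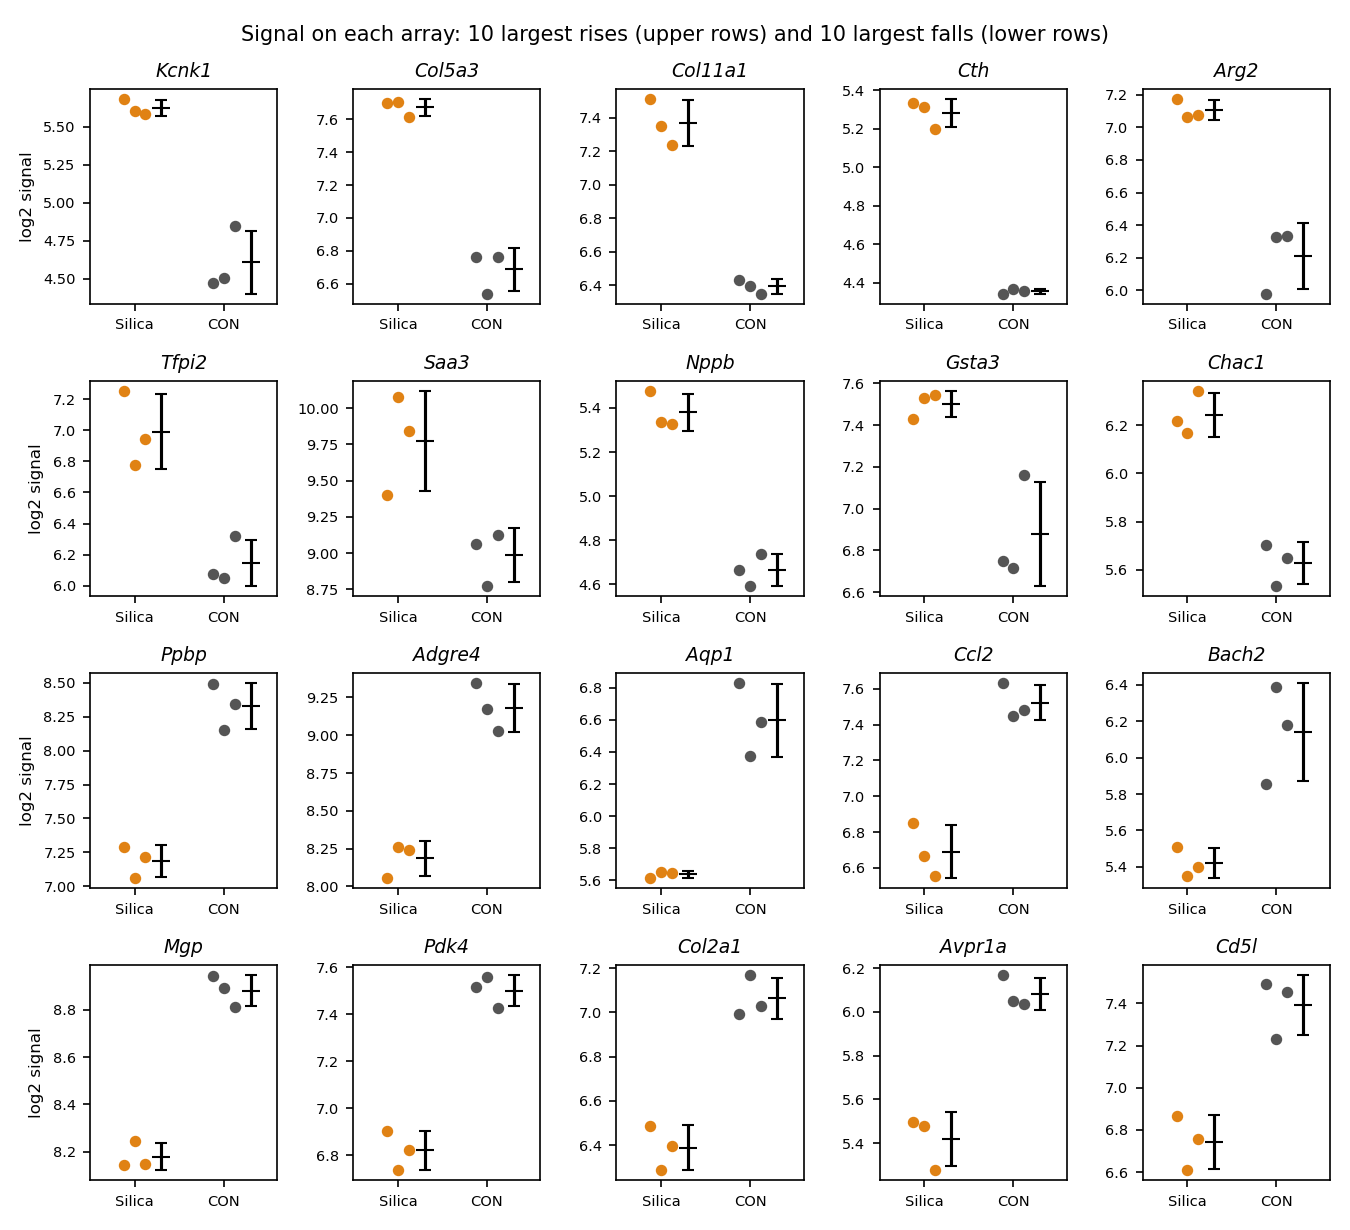
Log2 signal on each of the 3 Silica and 3 CON arrays for the 10 largest rises (upper rows) and 10 largest falls (lower rows) among the firm calls, with the mean and SD of each group as a bar. Axes differ between panels and do not start at 0. In every panel the Silica arrays lie wholly on 1 side of the CON arrays, a property the firm calls were chosen for, and the spread is widest for Saa3 in Silica (SD 0.34).

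Of 28 measured genes of chemokines, the secreted proteins that draw leukocytes, 8 were called lower in Silica. Ppbp, which encodes CXCL7, read 7.29, 7.06 and 7.22 in Silica, against 8.49, 8.15 and 8.34 in CON. Ccl2, the main attractant of monocytes, read 6.85, 6.67 and 6.55 in Silica, against 7.63, 7.45 and 7.48 in CON. Neither gene's groups overlapped, and in both the gap between the groups was wider than the range within either. Ppbp fell by 1.14 (standard error 0.13, adjusted p = 0.000235), a 2.2-fold change and the largest fall of the comparison, and Ccl2 fell by 0.83 (adjusted p = 0.000197). Ccl7, a monocyte attractant encoded beside Ccl2, read 6.10, 5.78 and 6.07 in Silica, against 6.53, 6.59 and 6.69 in CON, with no overlap and a fall of 0.62. Cxcl2, which draws neutrophils, fell by 0.38, Ccl6 fell by 0.37 and Pf4, the gene of platelet factor 4, fell by 0.21. Csf1, the gene of M-CSF itself, read 10.34, 10.33 and 10.34 in Silica, against 10.71, 10.79 and 10.63 in CON, and fell by 0.37 (adjusted p = 0.000539) with Silica arrays that hardly differed. No chemokine gene was called higher, 10 lay above 0, and the median was -0.12. Between 6 and 8 were called lower with 1 array left out, and 1 higher without CON 1. By unadjusted p below 0.05 in limma, 12 chemokines were lower and 2 higher. Cxcl12 lost its call without CON 2 (adjusted p = 0.0541), and Cxcl10 without any 1 of 5 arrays (0.0586 to 0.0949). Among chemokine receptor genes, the atypical receptor gene Ccrl2 rose by 0.31 ± 0.057 and Ccr1 fell by 0.22, out of 11 measured. Ccr1 lost its call without CON 1, CON 2, Silica 2 or Silica 3 (adjusted p = 0.0533 to 0.0576).

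Of 43 measured genes of the type I interferon response, 15 were called lower in Silica. Irf7, the transcription factor that amplifies interferon production, read 6.17, 6.47 and 6.57 in Silica, against 7.05, 7.01 and 6.91 in CON. Ifih1, the gene of the RNA sensor MDA5, read 8.41, 8.48 and 8.38 in Silica, against 8.74, 8.78 and 8.83 in CON. The groups did not overlap in either gene, with Silica 1 the lowest array for Irf7. Irf7 fell by 0.59 (standard error 0.079, adjusted p = 0.000635) and Ifih1 by 0.36 (adjusted p = 0.000539). Ifitm3, which blocks virus entry, read 11.39, 11.48 and 11.56 in Silica, against 11.88, 11.82 and 11.70 in CON, and Oas1a, a sensor that activates RNase L, read 9.15, 9.30 and 9.38 in Silica, against 9.56, 9.57 and 9.55 in CON. Both were lower on every Silica array and fell by 0.33 and 0.28. Ifi27l2a, which is not a member of the list and is also induced by interferon, read 9.45, 9.63 and 9.66 in Silica, against 10.19, 10.23 and 10.07 in CON, and fell by 0.59 (adjusted p = 0.000235).

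None of the 43 interferon response genes was called higher in limma, and 41 lay below 0, with a median of -0.214. By unadjusted p below 0.05, 28 were lower and 0 higher. The count rests on all arrays being present: it was 6 without CON 1, 5 without CON 2, 11 without CON 3, 9 without Silica 1 and 8 without Silica 2 or Silica 3. The 4 firm calls were Irf7, Ifih1, Ifitm3 and Oas1a. Mx1, an antiviral GTPase, gave the largest difference of the list and no firm call. It read 4.68, 5.34 and 4.83 in Silica, against 5.64, 5.89 and 5.53 in CON, without overlap but with Silica 2 near the CON arrays. It fell by 0.73 with a standard error of 0.18 (adjusted p = 0.0322), and the adjusted p was 0.051 to 0.154 when CON 1, CON 2, CON 3, Silica 1 or Silica 3 was left out. Rtp4 fell by 0.52 and lost its call without CON 1 (adjusted p = 0.0681). Probe sets of families with near-identical members, such as Oas1a, Ifit3, Gsta3 and Saa3, carry the 1 symbol the annotation gives, and reading of related transcripts was not tested.

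Promoters of Oas1a and Ifit3, called members of this list, are shown for the interferon-stimulated response element. They are the 250 bases before the start in RefSeq, build GRCm38.p6, chr5:120907526-120907775 on the minus strand for Oas1a and chr19:34583279-34583528 on the plus strand for Ifit3, 5′ to 3′ along the gene. Capitals mark matches to GAAA, 2 unspecified bases and GAAA, searched on both strands.
Oas1a: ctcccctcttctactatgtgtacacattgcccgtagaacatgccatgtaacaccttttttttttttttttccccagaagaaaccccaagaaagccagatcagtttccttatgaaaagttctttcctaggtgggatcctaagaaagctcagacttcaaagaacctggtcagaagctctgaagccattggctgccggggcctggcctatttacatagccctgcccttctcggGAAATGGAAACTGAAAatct
Ifit3: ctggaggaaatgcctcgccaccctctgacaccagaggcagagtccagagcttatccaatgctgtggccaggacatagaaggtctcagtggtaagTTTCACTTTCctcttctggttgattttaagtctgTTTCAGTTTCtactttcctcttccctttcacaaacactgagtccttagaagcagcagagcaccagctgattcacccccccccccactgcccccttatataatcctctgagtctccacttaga
Oas1a holds 2 matches that overlap each other, beginning at -20 and -14 from the start, and Ifit3 holds 2 separate matches, beginning at -156 and -122. The motif occurred in 3.85% of the 9882 genes with a window. It occurred in 6 of 11 interferon genes called lower, or 54.55%, and in 10 of 22 not called, or 45.45%. Among all genes called, it occurred in 8.9% of 146 lower genes and 5.56% of 234 higher genes with a window. No match lies in the window of Irf7.

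**Figure D3:**
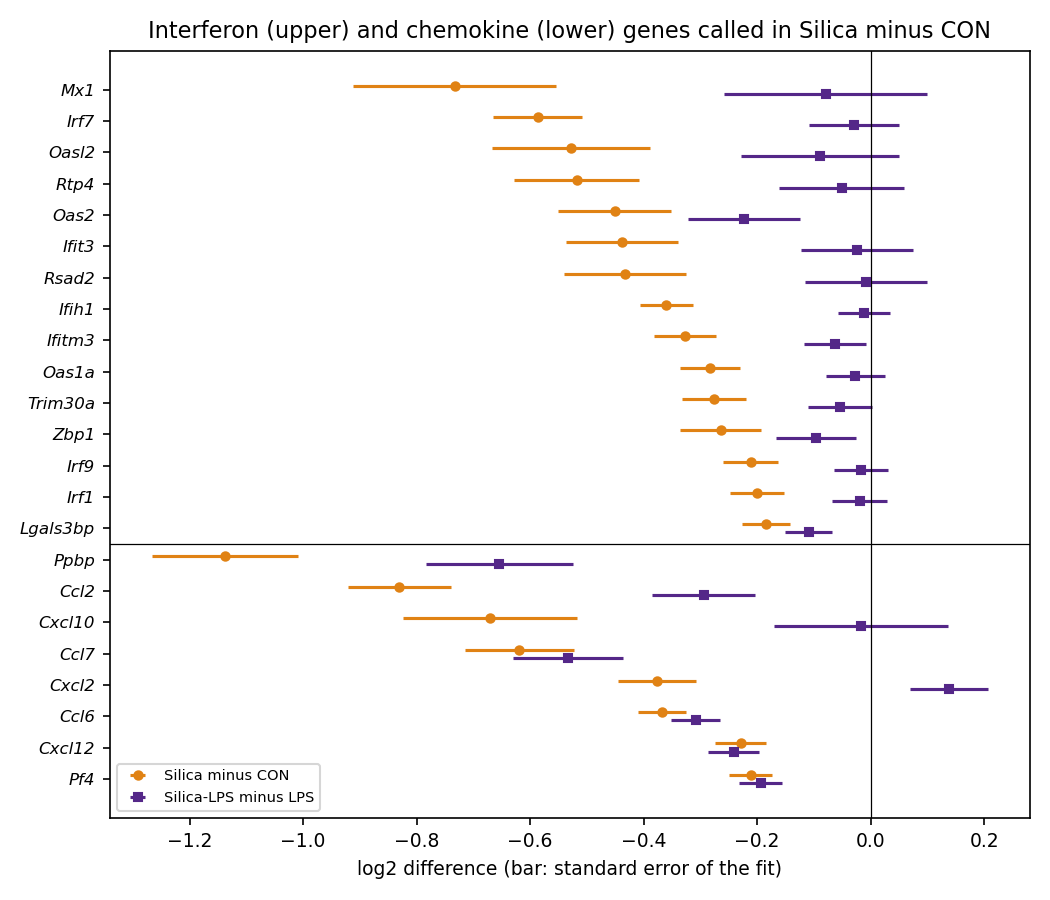
Log2 differences of the interferon genes (upper) and chemokine genes (lower) called in Silica minus CON, with circles for Silica minus CON and squares for Silica-LPS minus LPS; bars are standard errors of the fit. The circles lie between -0.18 and -1.14, while the interferon squares lie near 0 (Irf7 at -0.03, Mx1 at -0.08) apart from Oas2 at -0.22 and among the chemokines those of Ppbp, Ccl2, Ccl7, Ccl6, Cxcl12 and Pf4 lie below 0, Cxcl10 near 0 and Cxcl2 above it.

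Most inflammatory cytokine genes were not called. Il1b, the gene of interleukin-1 beta, read 7.17, 6.94 and 7.07 in Silica, against 7.25, 6.96 and 7.14 in CON. Tnf read 6.57, 6.62 and 6.78 in Silica, against 6.52, 6.78 and 6.87 in CON. The groups overlapped in both genes, with differences of -0.06 ± 0.083 for Il1b (adjusted p = 0.776) and -0.07 ± 0.085 for Tnf (adjusted p = 0.747). Nlrp3 itself averaged 7.68 ± 0.07 in Silica and 7.94 ± 0.15 in CON (adjusted p = 0.229). Il6 averaged 3.60 in Silica and 3.81 in CON, near the lower end of the scale, where a change would be understated. Of 28 measured cytokine and growth factor genes Csf1 was the 1 called, and of 16 inflammasome and cell death genes Naip5, a sensor of bacterial flagellin, was the 1 called (0.23 ± 0.050, lost without CON 2, Silica 1 or Silica 3). Tlr7, an endosomal RNA receptor, rose by 0.23 ± 0.041. The silica receptor Marco read 7.17, 7.38 and 7.41 in Silica, against 7.30, 7.25 and 7.42 in CON, with overlapping groups and a difference of -0.002 ± 0.075 (adjusted p = 0.994). Msr1 averaged 10.11 ± 0.08 in Silica and 10.25 ± 0.02 in CON (adjusted p = 0.0781).

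Of the remaining genes set for description whether called or not, Tlr4, the LPS receptor, was the 1 called, at 8.78 ± 0.041 in Silica and 8.57 ± 0.036 in CON (SD, n = 3 each). It rose by 0.21 ± 0.049 (adjusted p = 0.0273 in limma) and kept its call only when CON 1 was the array left out. Its partner Cd14 averaged 12.01 ± 0.043 in Silica and 12.09 ± 0.027 in CON (adjusted p = 0.293), and Nos2, the inducible nitric oxide synthase, 4.64 ± 0.058 in Silica and 4.90 ± 0.201 in CON (adjusted p = 0.212). Sqstm1, an autophagy adaptor, differed by 0.01 ± 0.045, Gclm, a glutathione synthesis enzyme, by -0.07 ± 0.053 and the metallothionein gene Mt1 by 0.08 ± 0.045. Gpnmb, a glycoprotein of lipid-laden macrophages, differed by 0.02 ± 0.035 and Trem2, a lipid-sensing receptor, by 0.11 ± 0.044. Cdkn1a, a cell cycle inhibitor, differed by -0.09 ± 0.049 and Timp1, an inhibitor of metalloproteinases, by 0.10 ± 0.047. None of these 9 passed the test.

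Early response transcription factors, which signalling induces within minutes, mostly lay below 0, and 4 of 28 were called. Egr1 read 10.02, 9.88 and 9.87 in Silica, against 10.48, 10.48 and 10.33 in CON, without overlap, and fell by 0.51 (adjusted p = 0.000539). Junb fell by 0.35 and Fosl1 by 0.31, both subunits of AP-1, and both lost the call without Silica 3 (adjusted p = 0.0519 and 0.052). All 4 calls were lower, 25 of the genes lay below 0, and the median was -0.125. By unadjusted p below 0.05, 15 were lower and 0 higher. With 1 array left out 2 to 4 were called, 2 without Silica 3, and 7 after cyclic loess.

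Of 45 measured cell cycle genes 4 were called lower in Silica, and 1 of these was a firm call. Over all genes 1.57% were called lower, and 0.476% were lower as firm calls. Ccnd1, the cyclin that drives entry into the cycle downstream of M-CSF, read 8.48, 8.44 and 8.56 in Silica, against 9.15, 9.08 and 9.04 in CON. The gap between its groups was several times the range within them, and it fell by 0.59 (standard error 0.056, adjusted p = 7.85e-05). Tk1 fell by 0.27, Pcna by 0.21 and Rrm2 by 0.21, all genes of DNA synthesis and none a firm call. No cell cycle gene was called higher, 38 lay below 0 and 7 above, and the median was -0.106, with 16 lower and 0 higher by unadjusted p below 0.05. The count was 1 without CON 3, Silica 2 or Silica 3, 2 without CON 1, 6 without Silica 1 and 9 after cyclic loess. Hmga2, a chromatin protein of proliferating cells, read 8.71, 8.74 and 8.48 in Silica, against 9.10, 9.26 and 9.12 in CON, without overlap, and fell by 0.52.

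Genes of the classical monocyte and alternative activation lists moved in both directions. Adgre4, an adhesion receptor related to F4/80, read 8.05, 8.26 and 8.24 in Silica, against 9.35, 9.18 and 9.03 in CON. Cd5l, a secreted scavenger protein of macrophages, read 6.86, 6.61 and 6.76 in Silica, against 7.49, 7.23 and 7.46 in CON. Cd5l belongs to neither list but to that of particle and lipoprotein scavenger receptors. Neither gene's groups overlapped, and Adgre4 fell by 0.99 (adjusted p = 0.000155) and Cd5l by 0.65 (adjusted p = 0.000693). Mrc1, the mannose receptor, read 11.22, 11.05 and 11.06 in Silica, against 11.47, 11.64 and 11.49 in CON, and was lower on every Silica array, a fall of 0.42 (adjusted p = 0.000728). Stab1, a scavenger receptor, fell by 0.41, and F13a1, the coagulation factor XIII A chain, fell by 0.48. Tgm2, transglutaminase 2, fell by 0.31. In the alternative activation list 6 of 29 measured genes were called lower and 2 higher, Arg1 and Slc7a2, with a median of -0.074. With 1 array left out it was 3 to 5 lower and 0 to 2 higher, with 0 higher without CON 2. Of 9 measured genes of the list set for classical monocytes 2 were called lower, Adgre4 and F13a1, and 1 higher, Hp. Ccr2, the receptor for Ccl2, averaged 9.05 in Silica and 9.12 in CON. How specific these genes, Adgre4 among them, are to classical monocytes was not tested. The counts are therefore of list members, and a change in classical monocytes is not read from them. A probe set shared by the surface antigen genes Ly6c1 and Ly6c2, outside the gene table because it carries 2 symbols, rose by 1.11 ± 0.0888 (adjusted p = 2.44e-05 in limma over all probe sets).

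A few genes of antigen presentation through MHC class II were lower. Cd74, the invariant chain, read 7.20, 7.28 and 7.28 in Silica, against 7.70, 7.80 and 7.63 in CON, without overlap, and fell by 0.46 (adjusted p = 0.00097). H2-Ab1 fell by 0.40 and H2-Eb1 by 0.37, neither a firm call. These were the 3 called of 16 measured genes, and the count was 1 without CON 1, CON 2, Silica 1 or Silica 3. Cfp, which encodes properdin, an activator of complement, read 10.71, 10.57 and 10.62 in Silica, against 11.04, 11.06 and 11.02 in CON, again with no overlap, and fell by 0.41 (adjusted p = 0.00026). P2ry6, the receptor for UDP, fell by 0.27, Mmp12, macrophage elastase, by 0.32 and Serpinb2, an inhibitor of plasminogen activators, by 0.38.

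Other falls were of single genes. Bach2, a transcriptional repressor, read 5.51, 5.35 and 5.40 in Silica, against 5.86, 6.39 and 6.18 in CON, where CON 1 came nearest to the Silica arrays, a fall of 0.72 (adjusted p = 0.00603). Pdk4, the kinase that turns off pyruvate dehydrogenase, read 6.91, 6.74 and 6.82 in Silica, against 7.52, 7.56 and 7.43 in CON, without overlap, a fall of 0.68. F2r, the thrombin receptor, read 7.09, 6.78 and 7.08 in Silica, against 7.60, 7.52 and 7.65 in CON, and fell by 0.60. Silica 2 was the lowest array for F2r, and no Silica array of these genes reached a CON array. Avpr1a, a vasopressin receptor, fell by 0.67, Hip1 by 0.59, Dclk1 by 0.54 and Cytip by 0.51.

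A minority of lysosomal genes, 7 of 52 measured, were called higher in Silica, beside 2.45% of all genes. Ctsh, the gene of the protease cathepsin H, is not among these 52. It belongs to a separate list of cathepsins and their inhibitors, of which 3 of 17 measured were called higher and 0 lower. Ctsh read 11.95, 11.98 and 11.99 in Silica, against 11.71, 11.67 and 11.72 in CON. Manba, lysosomal beta-mannosidase, read 9.17, 9.17 and 9.08 in Silica, against 8.88, 8.90 and 8.88 in CON, and Scarb2, the membrane protein LIMP-2, read 11.90, 11.83 and 11.91 in Silica, against 11.65, 11.59 and 11.70 in CON. None of the 3 genes overlapped between groups, and the rises were 0.27 ± 0.036 for Ctsh, 0.25 ± 0.037 for Manba and 0.24 ± 0.042 for Scarb2. The list of 52 holds lysosomal membrane proteins, proton pump subunits and hydrolases. In it 0 were called lower, 44 lay above 0, and the median was 0.089. By unadjusted p below 0.05, 25 were higher and 2 lower. The count of calls was 3 without CON 2, 4 without CON 1, Silica 1 or Silica 3, 5 without Silica 2 and 6 without CON 3. Mcoln1, the calcium channel of the lysosome, rose by 0.21 ± 0.045 and Sgsh, a sulfohydrolase, by 0.18 ± 0.040, neither a firm call. Ctsb, the cathepsin often measured after lysosomal damage, read 13.74, 13.71 and 13.75 in Silica, against 13.72, 13.73 and 13.74 in CON, with overlapping groups (adjusted p = 0.993). Lamp1 averaged 13.30 ± 0.03 in Silica and 13.21 ± 0.02 in CON (adjusted p = 0.211). Atg5, needed to form autophagosomes, rose by 0.30 ± 0.057, with the mean of its probe sets at 0.13 (adjusted p = 0.256).

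Promoters of the called genes Mcoln1 and Sgsh are shown for the letters of the CLEAR element, the E-box bound by the lysosomal regulator TFEB. They are the 250 bases before the start in RefSeq, build GRCm38.p6, chr8:3500269-3500518 on the plus strand for Mcoln1 and chr11:119355511-119355760 on the minus strand for Sgsh, 5′ to 3′ along the gene. Capitals mark matches to CACGTGAC on either strand.
Mcoln1: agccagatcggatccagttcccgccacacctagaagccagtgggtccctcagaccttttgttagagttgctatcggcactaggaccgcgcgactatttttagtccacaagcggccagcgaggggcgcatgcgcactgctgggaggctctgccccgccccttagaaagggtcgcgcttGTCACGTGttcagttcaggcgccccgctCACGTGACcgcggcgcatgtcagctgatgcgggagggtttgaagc
Sgsh: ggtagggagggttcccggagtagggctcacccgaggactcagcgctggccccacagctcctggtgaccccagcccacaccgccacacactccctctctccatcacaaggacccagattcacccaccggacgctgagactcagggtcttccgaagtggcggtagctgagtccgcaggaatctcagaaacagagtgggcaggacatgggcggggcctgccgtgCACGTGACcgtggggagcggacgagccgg
The matches do not overlap. The motif occurred in 4.05% of the 9882 genes with a window, in 4 of 6 lysosomal genes called higher and in 6 of 37 not called, or 16.22%. The 4 were Mcoln1, Sgsh, Gla and Atp6v0d1, none a firm call. No match lies in the windows of Manba and Scarb2, the firm calls of the list. Among all called genes with a window it occurred in 8.12% of the higher and 2.74% of the lower ones.

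Of 21 measured genes of cholesterol synthesis and uptake, 6 were called higher in Silica. Msmo1, a sterol oxidase, read 9.50, 9.52 and 9.60 in Silica, against 9.24, 9.16 and 9.24 in CON. Cyp51, a sterol demethylase, read 8.87, 8.78 and 8.84 in Silica, against 8.52, 8.49 and 8.66 in CON. Both genes were higher on every Silica array, by 0.33 ± 0.059 for Msmo1 and 0.27 ± 0.049 for Cyp51, although the mean of the Cyp51 probe sets gave 0.22 with an adjusted p of 0.0778. No gene of the list was called lower, 19 lay above 0, and the median was 0.163. The count was 2 without CON 1, CON 2 or Silica 1, 3 without Silica 2, 4 without Silica 3 and 7 without CON 3. By unadjusted p below 0.05, 11 were higher and 0 lower. The sterol response element (ATCAC, 1 unspecified base and CCAC, both strands) occurred in 0.23% of genes with a window and in 0 of 4 called members, which says only that these letters are not in those windows. Single genes of lipid transport moved in both directions. Apoc2, the activator of lipoprotein lipase, read 9.90, 9.83 and 9.87 in Silica, against 9.31, 9.36 and 9.44 in CON, and Fabp4, a fatty acid carrier of macrophages, read 9.54, 9.57 and 9.48 in Silica, against 9.03, 9.14 and 9.04 in CON. The groups stood apart in both, with rises of 0.50 ± 0.063 for Apoc2 and 0.46 ± 0.063 for Fabp4. Lpl, lipoprotein lipase itself, fell by 0.39 (adjusted p = 0.0169) and lost its call without CON 2, CON 3 or Silica 3. Of 26 measured PPAR targets and fatty acid handling genes 1 was called higher and 2 lower, beside 2.45% and 1.57% of all genes. Their median was 0.003. The cholesterol exporter gene Abca1 averaged 12.03 ± 0.13 in Silica and 12.20 ± 0.06 in CON (adjusted p = 0.131).

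In the list of glycolysis and hypoxia genes, more were called higher than lower. Aldoc, aldolase C, read 8.52, 8.55 and 8.61 in Silica, against 7.95, 8.01 and 8.19 in CON, without overlap, a rise of 0.51 ± 0.067 (adjusted p = 0.000556). P4ha2, a prolyl hydroxylase of collagen, rose by 0.33 ± 0.059, Pfkfb3, a regulator of glycolysis, by 0.27 ± 0.048 and Pgam1, a glycolytic mutase, by 0.20 ± 0.037, while Adm, the gene of adrenomedullin, fell by 0.42. For Pfkfb3 the mean of its probe sets gave 0.11 with an adjusted p of 0.378. Ldhb, a lactate dehydrogenase chain, and Pygl, a glycogen phosphorylase, are not members of the list. Ldhb rose by 0.41 ± 0.053 and Pygl by 0.35 ± 0.055. Of 28 measured glycolysis and hypoxia genes 6 were called higher and 1 lower, with 4 to 5 higher when 1 array was left out (4 without CON 3, Silica 1 or Silica 3). In the respiratory chain 0 of 35 genes were called in limma, with 4 higher and 0 lower by unadjusted p below 0.05. Among genes of prostaglandin and leukotriene handling, Cyp4f18, which inactivates leukotriene B4, rose by 0.45 ± 0.062 and Pla2g7, which degrades platelet-activating factor, by 0.29 ± 0.051, while Ptgs2, cyclooxygenase 2, averaged 9.88 ± 0.09 in Silica and 9.80 ± 0.01 in CON (adjusted p = 0.635).

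**Figure D4:**
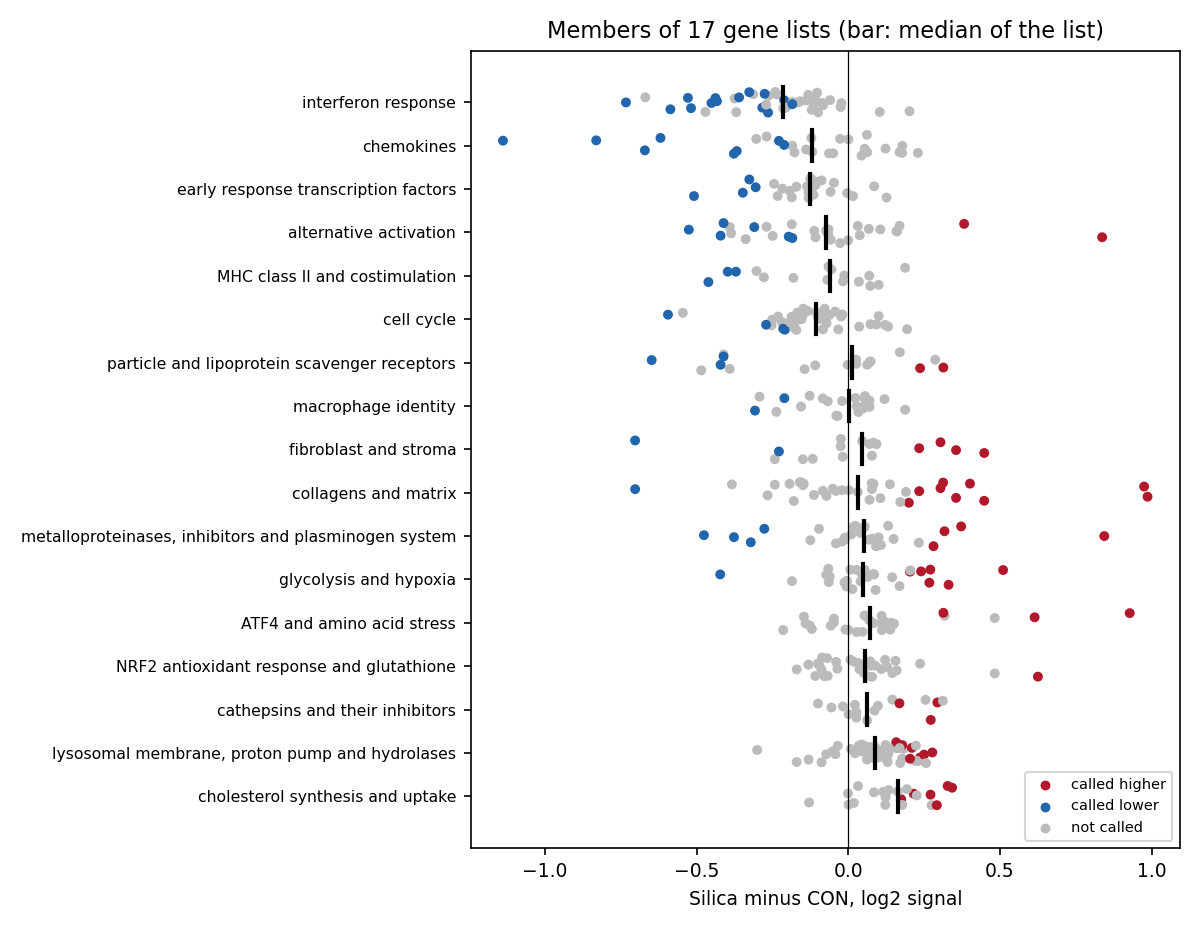
Silica minus CON differences in log2 signal of every measured member of the lists named on the axis, 1 point per gene, red where called higher, blue where called lower and grey where not called, with a vertical bar at each list's median. Interferon response genes lie almost wholly left of 0 (median -0.214) and cholesterol synthesis genes mostly right of it (median 0.163), while collagen and matrix genes reach both -0.70 and 0.99.

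Markers of other marrow cells were measured in the same arrays. Neutrophil and granulocyte precursor genes were present, with S100a8 at 13.03 in Silica and 13.12 in CON, and of 16 measured 1 was called higher, the receptor gene Csf3r, with a median of -0.101. Their summed linear signal ran from 22334 to 25359 over the Silica arrays and from 24597 to 26194 over the CON arrays. The macrophage identity list had 0 called higher and 2 lower of 22, with a median of 0.001, and by unadjusted p below 0.05 there were 1 higher and 5 lower. For B cells, T and NK cells, erythroid cells and mast cells 0 markers were called in limma, and at most 2 of any of these lists passed an unadjusted p of 0.05. Of 12 endothelial markers 2 were called lower, Kdr and Eng, neither a firm call.

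The same particle was also measured under LPS, on arrays that share none with Silica or CON. Silica-LPS against LPS gave 234 genes called higher and 121 lower, 2.86% of those tested (1.89% higher and 0.976% lower). Both comparisons called 140 genes, all in the same direction (87 higher and 53 lower), which is 28.1% of the genes called without LPS and 39.4% of those called under LPS. Of the 498 genes 465 had the same sign under LPS, or 93.4%, and of the 162 firm calls 155 did. Across genes the differences correlated at a Pearson r of 0.474 over all genes and 0.832 over the 498, a description in which all genes share the same arrays and the 498 were chosen for their difference without LPS. The genes called higher had a median of 0.262 without LPS and 0.155 under LPS, and those called lower -0.304 and -0.151.

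Kcnk1 read 5.37, 5.36 and 5.18 in Silica-LPS, against 4.66, 4.75 and 4.58 in LPS. Aqp1 read 5.46, 5.59 and 5.51 in Silica-LPS, against 6.41, 6.30 and 6.52 in LPS. Neither gene overlapped between groups under LPS, with a rise of 0.64 ± 0.094 for Kcnk1 and a fall of 0.89 for Aqp1. Col11a1 rose by 0.86 under LPS, Tfpi2 by 0.95, Arg1 by 0.98 and Gsta3 by 0.60, and Mgp fell by 0.84, Pdk4 by 0.72, Ppbp by 0.65 and Cd5l by 0.63. Cholesterol synthesis genes were called higher in 11 of 21 cases under LPS, with a median of 0.303 beside 0.004 over all genes, and glycolysis and hypoxia genes in 9 of 28 with a median of 0.136. Lysosomal genes were called higher in 7 of 52 cases with a median of 0.102, and chemokines lower in 9 of 28.

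Interferon genes differed between the conditions in their counts. Under LPS, 0 of 43 were called in limma, with a median of -0.023, and by unadjusted p below 0.05 there were 3 lower and 0 higher. Irf7 read 11.21, 11.25 and 11.21 in Silica-LPS, against 11.29, 11.25 and 11.22 in LPS, groups that overlap at far higher levels than without LPS. A direct test of whether the silica effect changed with LPS called 2 genes of 12393 (0.0161%), and no interferon gene was among them; for Irf7 that difference was 0.56 ± 0.11 (adjusted p = 0.232). Ccl2 fell by 0.83 without LPS and differed by -0.29 ± 0.091 under it (adjusted p = 0.104), with a test of the change at an adjusted p of 0.241. Saa3 rose by 0.79 without LPS and differed by 0.06 ± 0.13 under it, with a test of the change at an adjusted p of 0.267. At an unadjusted p below 0.05 the test of the change gave 843 genes.

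**Figure D5:**
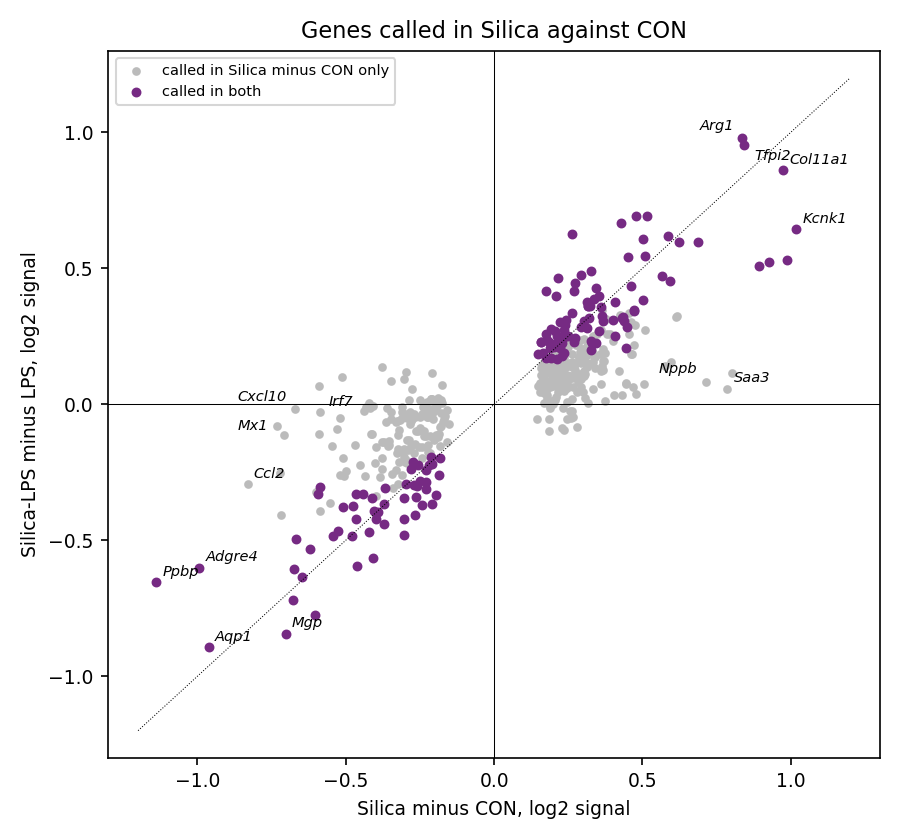
Each point is 1 of the 498 genes called in Silica minus CON, with that log2 difference on the x axis and the Silica-LPS minus LPS difference on the y axis; purple points were called in both and the dotted line marks equal differences. Purple points lie only in the lower left and upper right, and Mx1, Irf7 and Cxcl10 lie near 0 on the y axis.

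The 2 genes whose silica effect differed with LPS were Ccnd2 and Plpp3. Ccnd2, a D-type cyclin, read 9.89, 9.71 and 9.77 in Silica, against 9.63, 9.76 and 9.62 in CON. Under LPS it read 10.47, 10.51 and 10.49 in Silica-LPS, against 10.89, 10.92 and 10.94 in LPS. Its groups overlapped without LPS (0.12 ± 0.058, adjusted p = 0.293) and stood apart under LPS (-0.43 ± 0.058, adjusted p = 0.00111), a change of -0.55 ± 0.082 (adjusted p = 0.0452). Plpp3, a lipid phosphatase, read 7.03, 6.92 and 6.88 in Silica, against 7.28, 7.32 and 7.28 in CON, and 10.24, 10.18 and 10.20 in Silica-LPS, against 10.15, 10.11 and 10.10 in LPS. It was lower on every Silica array and higher on every Silica-LPS array than in the matching control, with differences of -0.35 ± 0.046 without LPS (adjusted p = 0.000551) and 0.09 ± 0.046 under it (adjusted p = 0.361), a change of 0.44 ± 0.064 (adjusted p = 0.0452). The test called 0 to 2 genes when 1 array was left out and 0 with the replicate number as a block.

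Iron oxide particles were measured against the same CON arrays, and 33.8% of genes were called for them, so the values stand side by side with no test of the difference. For Apcdd1 the difference from CON was 0.60 in Silica and -0.05 in SPIO, for Apoc2 0.50 in Silica and -0.05 in SPIO, and for Postn 0.45 in Silica and -0.02 in SPIO. For Cd5l it was -0.65 in Silica and 0.00 in SPIO. Hmox1 gave 0.03 in Silica and 1.16 in SPIO, and Gsta3 0.62 in Silica and 2.18 in SPIO. Among the falls, Ppbp gave -1.14 in Silica and -2.94 in SPIO, and Adgre4 -0.99 in Silica and -3.11 in SPIO.

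A gene's other probe sets give a check within the arrays. Of the 498 called genes 259 had further probe sets, 452 in all, of which 368 had the same sign as the one used, 85 were called in the same direction and 0 in the opposite one.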

How the data were processed

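RNA of 18 cultures was measured on Affymetrix arrays, 1 array each. The authors deposited log2 signals per probe set, made with RMA per the submitters' processing notes. The RMA software's version is not given in the sources used here. There are no detection calls, and precision is limited by the small number of arrays. Of 22690 probe sets 64 were controls, 691 of the rest had several gene symbols and 1555 none, and 20380 with 1 symbol gave 12393 genes, each by its brightest probe set on average.

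In R 4.3.3, limma 3.58.1 fitted 1 mean per group to all 18 arrays (lmFit, contrasts.fit, eBayes), with Benjamini-Hochberg adjustment over all genes per contrast and a call below 0.05. Contrasts were Silica minus CON, Silica-LPS minus LPS, their difference, and SPIO minus CON. No pairing by replicate number was seen between Silica and CON arrays. Deviations of same-numbered arrays correlated at -0.218, -0.014 and -0.019, and those of other-numbered arrays at -0.133 to 0.154. With 3 arrays per group this check cannot show whether the cultures were paired. In simulated data on 12393 genes this contrast recovered 28.4%, 92.5% and 100% of changes of 0.25, 0.5 and 1, with 4 false calls. The simulated noise was normal and independent for each gene and array, with no error shared across genes. These rates therefore need not hold for the measured arrays.

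The 48 gene lists, from general knowledge, and the genes described were chosen with earlier results of these data known. Named by rule were the 20 largest firm rises and falls, up to 4 firm calls per list, the fixed genes that were measured, 5 genes each way called in both silica comparisons, and the interaction calls. Others named were chosen after their values were seen, among them Mx1, Cxcl10, Rtp4, Junb, Fosl1, Thbs2, Ldhb and the remaining called list members. Promoter windows came from RefSeq, GRCm38.p6.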

Additional observations from a re-analysis of the deposited data

Results flagged for a closer look

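The silica effect on Ccnd2 differed with LPS, by -0.55 ± 0.082 (adjusted p = 0.0452, limma, n = 3 per group): it fell under LPS, and the groups overlapped without LPS.

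For Plpp3 the silica effect was higher under LPS than without it by 0.44 ± 0.064 (adjusted p = 0.0452), and it fell without LPS (-0.35, adjusted p = 0.000551), while the difference under LPS, 0.09, was not called (adjusted p = 0.361).

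A probe set shared by Ly6c1 and Ly6c2, genes of surface antigens, carries 2 symbols and so was outside the gene table. It averaged 10.24 in Silica and 9.132 in CON, a rise of 1.11 ± 0.0888 (adjusted p = 2.44e-05 over all probe sets in limma) that exceeds the 1.02 of Kcnk1, the largest rise among the genes tested. The transcripts of Ly6c1 and Ly6c2 cannot be told apart by this probe set. In the gene table Adgre4 and F13a1, from the list set for classical monocytes, fell. Hp, from the same list, rose by 0.303 (adjusted p = 0.0228 in limma) and is no firm call. Whether these genes and Ly6c1 or Ly6c2 mark the same cells was not tested.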

How the results depend on the processing

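Called genes in Silica minus CON numbered 498 in the fit of all arrays (304 higher, 194 lower), 445 with the replicate number as a block (266 and 179), 110 on the 6 arrays of both groups alone (65 and 45), 850 with a variance trend and robust prior (539 and 311), 755 without the dimmest 33.3% of genes (478 and 277), 919 with array weights (506 and 413), and 203 to 381 with 1 array left out (123 to 209 higher, 80 to 217 lower). In Silica-LPS minus LPS the count was 355, and 63 on its own arrays, 577 with trend and robust prior, 536 without dim genes and 186 to 333 with 1 array left out. The interaction had 2 calls, and 0 with the block, on the arrays compared alone or with every probe set on its own (843 genes at an unadjusted p below 0.05 in limma), 40 with trend and robust prior, 5 without dim genes, 1 with the mean of probe sets and 0 to 2 with 1 array left out. The cause of these differences was not tested, except that the fit on 6 arrays has fewer samples. The block changed no call among the 75 firm genes named by rule. All 75 also kept their call under trend, single probe sets, loess and weights; 26 lost it on the 6 arrays alone, and Atg5, Cyp51 and Pfkfb3 lost it with the mean of their probe sets. No named result changed sign past a threshold. A gene not called is not shown to be equal between groups.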

Other observations

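Probe sets outside the gene table were also tested. Of 691 with several symbols 9 were called higher in Silica and 8 lower, and of 1555 with no symbol 25 were higher and 14 lower, by limma over all probe sets. A probe set shared by Isg15 and Gm9706, of which Isg15 encodes an interferon-induced modifier protein, averaged 7.141 in Silica and 7.508 in CON, a fall of 0.367 (adjusted p = 0.0224). One shared by Csf2rb2 and Csf2rb, receptor chains for GM-CSF and related cytokines, averaged 6.681 in Silica and 7.096 in CON, a fall of 0.415 (adjusted p = 0.00214).

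Several firm calls outside the lists encode proteins of the secretory route. Creb3l1, a transcription factor of the endoplasmic reticulum membrane, read 7.21, 7.12 and 7.14 in Silica, against 6.78, 6.81 and 6.68 in CON, and rose by 0.40 ± 0.056. Kdelr3, a receptor that returns chaperones to the endoplasmic reticulum, rose by 0.33 ± 0.055, Sec23a, a coat protein of vesicles leaving it, by 0.31 ± 0.051 and Copz2, a coat protein of vesicles returning to it, by 0.33 ± 0.064. They were picked after their values were seen, so no count is drawn from them. Havcr2, the gene of the receptor TIM-3, read 8.19, 8.17 and 8.17 in Silica, against 7.67, 7.69 and 7.88 in CON, and rose by 0.43 ± 0.065 without LPS and by 0.67 under LPS.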
